A study of Mus musculus with 24 samples.

Results

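Cyclic nucleotide phosphodiesterases are the enzymes that degrade cAMP and cGMP, and they are one of the target classes of dipyridamole, a drug that also blocks cellular uptake of adenosine. Messenger RNA of 10 phosphodiesterase genes was followed across the cerebellum and hippocampus of Niemann-Pick type C mice. The genes were Pde1a, Pde1b, Pde1c, Pde2a, Pde4d, Pde5a, Pde7b, Pde8a, Pde9a and Pde10a, taken by gene symbol as 10 of the 57126 genes in the count files. Of these, 9 were measured well enough to be tested, and the other one, Pde2a, had 1 read in the whole series.

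The mice were littermates of the BALB/cNctr-Npc1m1N/J strain, which carries a mutant allele of Npc1, the gene for a lysosomal cholesterol transporter. There were 3 groups of 4 mice: dipyridamole-treated Npc1-/- mice, vehicle-treated Npc1-/- mice, and vehicle-treated Npc1+/+ mice. Dipyridamole was injected intraperitoneally at 30 mg/kg on 5 days a week from postnatal day 28, in a mixture of PBS and PEG400 that was the vehicle of the other groups. The Npc1-/- mice were labelled 63 days old and the Npc1+/+ mice 65 days old at dissection. Both tissues came from each of the 12 mice, giving 24 libraries. All 4 Npc1+/+ mice were female, against 2 of the 4 dipyridamole-treated and 1 of the 4 vehicle-treated Npc1-/- mice. Genotype was therefore compared with a term for sex that only the Npc1-/- mice inform, and age and genotype cannot be told apart. No Npc1+/+ mouse received the drug, so its effect was measured only on the mutant background.

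Phosphodiesterases end the signals that adenylyl and guanylyl cyclases start. The PDE1 enzymes are switched on by calcium and calmodulin and hydrolyse both cAMP and cGMP; PDE5 and PDE9 are specific for cGMP; PDE4, PDE7 and PDE8 are specific for cAMP; and PDE2 and PDE10 accept both. In brain the enzymes are divided among cell types, with PDE5 known from cerebellar Purkinje neurons and PDE10 and PDE1B best known from the medium spiny neurons of the striatum.

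Levels are given as CPM (counts-per-million), the reads of a gene relative to the size of its library after TMM normalization over all 24 libraries. RNA was read by the Ion AmpliSeq Transcriptome panel, which amplifies a short stretch of each gene. Each gene has its own amplicon, so levels are compared between libraries and not between genes. Library totals lay between 1833609 counts, in the second vehicle-treated Npc1-/- cerebellum, and 11590081 counts. The hippocampus of the same mouse had 3844971 counts. Raw counts given below are therefore not matched for depth, unlike CPM. Npc1 itself, which checks the genotype labels, was at 13.4 to 27.3 CPM in dipyridamole-treated and 21.7 to 37.6 CPM in vehicle-treated Npc1-/- cerebella, against 97.8 to 107 CPM in Npc1+/+ cerebella. In the hippocampus it was at 15.5 to 21.4 and 17.8 to 23.0 CPM in the same mutant groups, against 63.6 to 98.3 CPM in Npc1+/+ mice. Summed markers of cerebellar granule cells were at 3772 CPM or more in every cerebellar library and at 147 CPM or less in every hippocampal one. The fourth dipyridamole-treated hippocampus held 535 CPM of summed cortical markers, against 163 CPM or less in the other 3 of its group. Other libraries also stood apart in markers: choroid plexus markers ran from 81.5 to 8131 CPM over the hippocampal and from 43.1 to 2854 CPM over the cerebellar libraries, and smooth muscle and pericyte markers were at 281 CPM in the second vehicle-treated Npc1-/- cerebellum, against 169 CPM or less in the other 3.

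By the coordinates in the files (GRCm39), Pde1a lies on chr2:79664797-79959802 on the minus strand, Pde1b on chr15:103411461-103438479 on the plus strand and Pde1c on chr6:56046789-56629472 on the minus strand. Pde5a lies on chr3:122522596-122653023 and Pde9a on chr17:31605184-31695284, both on the plus strand. The cAMP-specific genes are Pde4d on chr13:108586482-110089995 and Pde8a on chr7:80863344-80984281, both on the plus strand, and Pde7b on chr10:20273750-20600824 on the minus strand. Pde10a lies on chr17:8744204-9205480 and Pde2a on chr7:101070898-101162034, both on the plus strand. Of the exon bases of Pde2a, 64.3% are shared with the overlapping gene Gm45837 on the same strand, and the level of Pde2a was not analysed further. Its near lack of reads is not taken as absence of expression. Pde5a and Pde9a share 0.6% and 8.3% of their exon bases with antisense genes that had 16 and 0 counts in all libraries, and the other 7 members share none.

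The sequences just before the starts of Pde5a and Pde8a are shown because these are the 2 members whose genotype difference differed between the tissues. They are the 250 bases upstream of the RefSeq gene start on the GRCm38.p6 build, at chr3:122728908-122729157 for Pde5a and chr7:81213015-81213264 for Pde8a, both on the plus strand and written 5′ to 3′. Capitals mark GGGCGG, the GC box bound by Sp1-type factors, and TGACG, the core of the cAMP response element.
Pde5a: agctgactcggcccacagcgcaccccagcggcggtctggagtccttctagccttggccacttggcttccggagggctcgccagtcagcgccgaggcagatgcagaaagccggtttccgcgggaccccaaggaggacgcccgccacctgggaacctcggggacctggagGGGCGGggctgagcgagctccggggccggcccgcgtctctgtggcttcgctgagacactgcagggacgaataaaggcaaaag
Pde8a: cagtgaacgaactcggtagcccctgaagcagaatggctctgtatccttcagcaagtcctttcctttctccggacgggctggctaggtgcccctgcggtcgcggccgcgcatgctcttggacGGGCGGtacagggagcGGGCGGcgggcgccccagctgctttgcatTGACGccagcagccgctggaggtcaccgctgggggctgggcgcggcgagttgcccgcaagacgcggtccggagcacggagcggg
The Pde5a window had 1 GC box and no core element, and the Pde8a window had 2 GC boxes and 1 core element, 84 bases upstream. Both strands were searched, and TGACG is also part of the full element TGACGTCA. Of the 32851 RefSeq promoter windows of this length, 32.7% held a GC box, 17.8% the core and 1.55% the full element. RefSeq gave 21 such windows for 9 of the 10 members, of which 5 held a GC box, 2 the core and 0 the full element. These matches describe letters in a window and not binding.

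Pde1a was 28.1-fold lower and Pde1c 17.4-fold higher in the cerebellum of Npc1+/+ mice than in their hippocampus, although both genes encode calmodulin-dependent enzymes. Pde5a and Pde9a, the members specific for cGMP, were both higher in the cerebellum. Of the 9 tested members, 4 were higher and 2 lower in the cerebellum. The test was the quasi-likelihood test of edgeR, at a Benjamini-Hochberg adjusted p of 0.05 over all genes, in a fit that kept the mouse as a block. Of all 13436 genes tested, 43.1% passed, 21.3% higher and 21.8% lower, so a difference between these tissues was common. The tissues did not overlap for 6 members, 4 higher and 2 lower in the cerebellum, against 38.9% of all genes, 19.3% higher and 19.7% lower.

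Pde1a had 7.99, 4.50, 5.00 and 5.09 CPM in the 4 Npc1+/+ cerebella and 135, 167, 157 and 179 CPM in the 4 Npc1+/+ hippocampi. Pde1c had 134, 121, 135 and 138 CPM in those cerebella and 7.14, 7.04, 8.19 and 8.005 CPM in those hippocampi. The libraries of the tissues lay far apart for both genes, in opposite directions. The log2 difference, cerebellum over hippocampus, was -4.81 ± 0.18 (SE) for Pde1a and 4.12 ± 0.22 for Pde1c, and edgeR's adjusted p was 2.4e-12 and 8.64e-11 (n = 4 mice). Pde1b, the remaining calmodulin-dependent enzyme, took the side of Pde1a, with 97.8, 111, 71.3 and 93.2 CPM in the cerebellum and 203, 215, 185 and 202 CPM in the hippocampus. Its log2 difference was -1.12 ± 0.12, with an adjusted p of 9.96e-07 in the same edgeR test.

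Pde5a had 41.1, 49.8, 47.1 and 49.2 CPM in Npc1+/+ cerebella and 12.1, 9.26, 10.3 and 7.55 CPM in Npc1+/+ hippocampi. Pde9a, the cGMP hydrolase of highest affinity, had 53.0, 43.2, 44.1 and 42.8 CPM in the cerebellum and 19.3, 21.3, 13.7 and 12.5 CPM in the hippocampus. No library of one tissue reached into the range of the other for either gene. The log2 differences were 2.25 ± 0.20 for Pde5a and 1.47 ± 0.15 for Pde9a, and edgeR's adjusted p was 5.15e-08 and 4.86e-07. Pde4d was higher in the cerebellum by 0.50 ± 0.18 (adjusted p = 0.029, edgeR), with libraries that overlapped, and this call was lost when the Npc1+/+ mouse of replicate 1, 2 or 3 was left out (adjusted p = 0.158, 0.0869 and 0.0794). Pde10a differed by 0.32 ± 0.14 (adjusted p = 0.0746), and Pde7b and Pde8a by 0.09 ± 0.18 and 0.11 ± 0.22 (adjusted p = 0.726 and 0.716). Leaving out the Npc1+/+ mouse of replicate 4 brought Pde10a to an adjusted p of 0.0293.

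**Figure D1:**
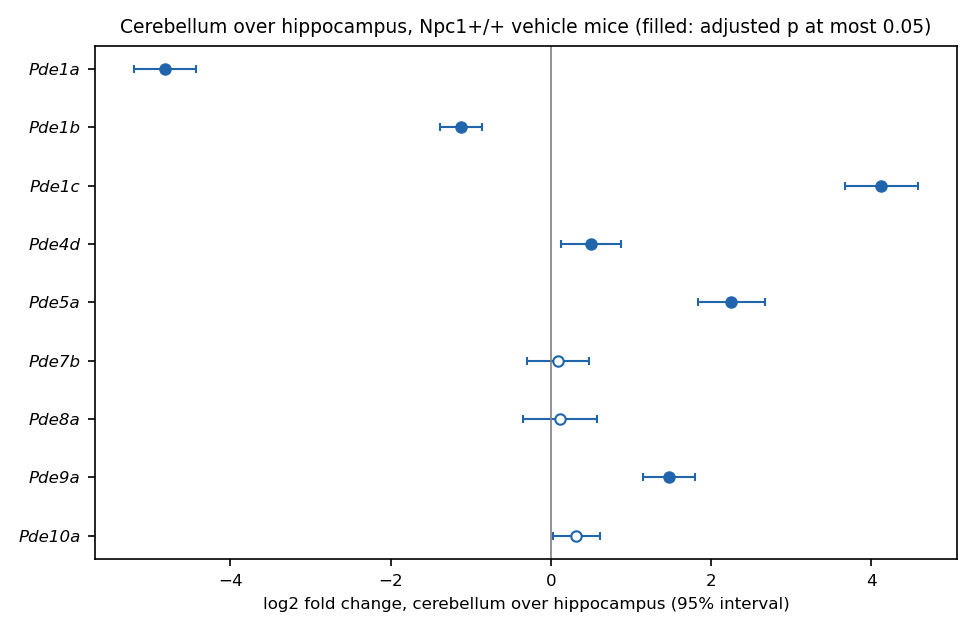
Log2 fold change of the 9 tested members between the cerebellum and hippocampus of the 4 Npc1+/+ vehicle mice, with 95% intervals; filled points passed an adjusted p of 0.05. Pde1a lies farthest to the hippocampal side at -4.81 and Pde1c farthest to the cerebellar side at 4.12.

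Across the 6 groups, the order of mean levels differed from member to member. For Pde1a and Pde1b all 3 hippocampal groups stood above all 3 cerebellar ones, and for Pde1c, Pde4d, Pde5a and Pde9a the reverse held. Pde8a had its 3 cerebellar means at the top (20.8 ± 2.22, 24.7 ± 3.35 and 18.9 ± 2.63 CPM in dipyridamole-treated Npc1-/-, vehicle-treated Npc1-/- and Npc1+/+ mice, SD, n = 4 each). Next came the Npc1+/+ hippocampi at 17.6 ± 2.92 CPM, within 1 SD of the Npc1+/+ cerebella, and last the hippocampi of dipyridamole-treated and vehicle-treated Npc1-/- mice at 5.31 ± 1.94 and 6.703 ± 3.52 CPM. The means of Pde7b ran only between 7.86 CPM in dipyridamole-treated Npc1-/- cerebella and 12.8 CPM in Npc1+/+ cerebella. Those of Pde10a ran between 105 CPM in dipyridamole-treated Npc1-/- hippocampi and 138 CPM in Npc1+/+ cerebella. For both genes the hippocampal ranges of all groups overlapped. Pde4d, the widely expressed cAMP-specific enzyme, had 106 to 129 CPM in dipyridamole-treated Npc1-/-, 108 to 135 CPM in vehicle-treated Npc1-/- and 100.1 to 164 CPM in Npc1+/+ cerebella. In hippocampi of the same groups it had 83.3 to 156, 73.4 to 116 and 78.7 to 104 CPM. Its neighbouring groups in the order of means all overlapped. Striatal markers, of interest because PDE10A and PDE1B mark striatal neurons, summed to 217 to 289 CPM in all cerebellar libraries and 87.3 to 158 CPM in all hippocampal ones.

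**Figure D2:**
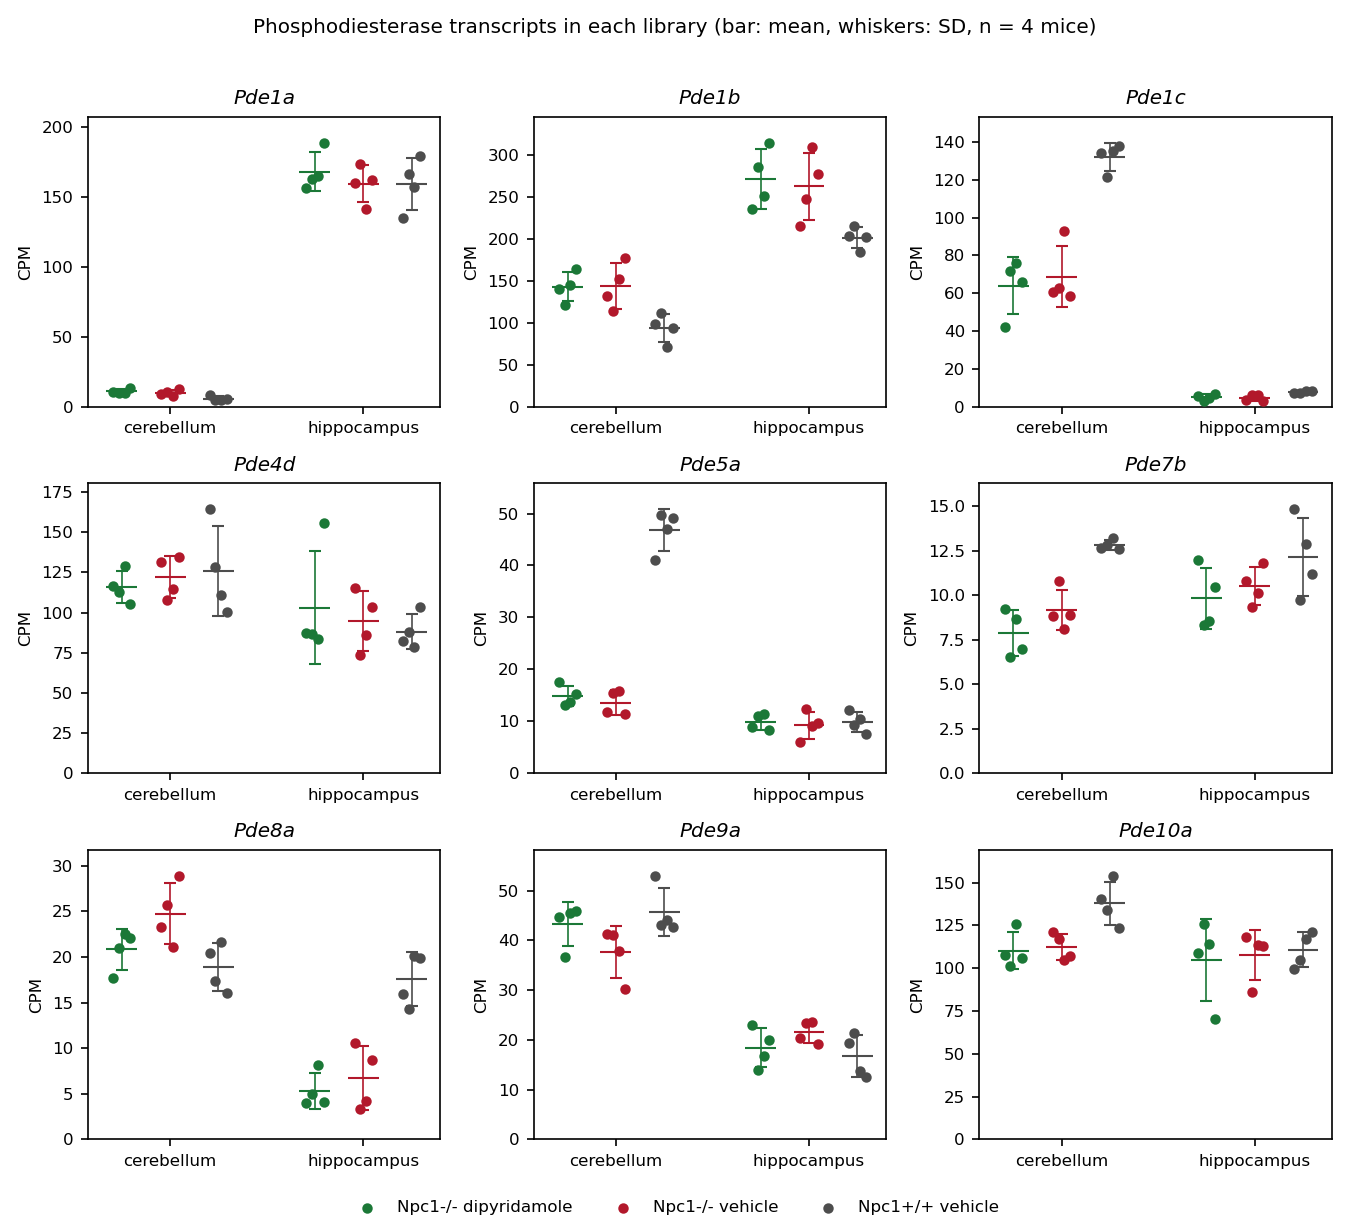
CPM of the 9 measured members in each of the 24 libraries, by tissue and group, each vertical axis starting at 0; points are libraries, bars the group mean and whiskers the SD (n = 4 mice). Pde5a in Npc1+/+ cerebella (41.1 to 49.8 CPM) stands clear of every other group, and Pde8a in the Npc1-/- hippocampi lies below the Npc1+/+ hippocampi (14.3 to 20.1 CPM).

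In the cerebellum 2 members differed between vehicle-treated Npc1-/- and Npc1+/+ mice. Pde5a, which removes cGMP, was 3.31-fold lower in vehicle-treated Npc1-/- mice than in Npc1+/+ mice, and Pde1b, a calmodulin-dependent enzyme, was 1.72-fold higher. These 2 of the 9 tested members passed an adjusted p of 0.05 in edgeR's quasi-likelihood test, where 9.95% of all 12921 genes did, 5.91% higher and 4.04% lower. The median log2 fold change of the members was -0.19, against 0.01 over all genes tested.

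Pde5a had 11.8, 15.4, 15.7 and 11.4 CPM in vehicle-treated Npc1-/- cerebella, against 41.1, 49.8, 47.1 and 49.2 CPM in Npc1+/+ cerebella. Each mutant library was below every Npc1+/+ library, at counts of 30 to 126 against 367 to 498. The log2 fold change was -1.73 ± 0.21 (95% interval -2.17 to -1.28), and edgeR's adjusted p was 2.85e-05. Pde9a, the other cGMP-specific member, had 41.4, 41.1, 37.8 and 30.3 CPM in the mutants, against 53.0, 43.2, 44.1 and 42.8 CPM in Npc1+/+ mice. Its libraries did not overlap either, but the log2 fold change of -0.19 ± 0.19 did not pass (adjusted p = 0.577, edgeR).

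The calmodulin-dependent members differed in both directions. Pde1b had 132, 114, 153 and 177 CPM in vehicle-treated Npc1-/- cerebella, against 97.8, 111, 71.3 and 93.2 CPM in Npc1+/+ cerebella. All 4 mutant libraries were above all 4 Npc1+/+ libraries, by a log2 fold change of 0.78 ± 0.20 and an adjusted p of 0.0169 (edgeR). Pde1c, the cerebellar enzyme of this family, had 60.6, 62.7, 92.7 and 58.8 CPM in the mutants, against 134, 121, 135 and 138 CPM in Npc1+/+ mice. The mutant libraries were all lower, yet with the term for sex the log2 fold change was -0.61 ± 0.19 and the adjusted p 0.0517 (edgeR), just short of the threshold. That term is also why a fitted fold change need not equal the mean of one group over the mean of the other. Pde1a had 9.18, 10.3, 7.74 and 12.6 CPM in the mutants, against 7.99, 4.50, 5.00 and 5.09 CPM in Npc1+/+ mice, and 1 of the Npc1+/+ libraries reached into the mutant range. Its log2 fold change was 0.75 ± 0.30, with an adjusted p of 0.127 (edgeR).

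Among the cAMP-specific members, Pde7b had 8.83, 10.8, 8.11 and 8.91 CPM in vehicle-treated Npc1-/- cerebella, against 12.7, 12.8, 13.2 and 12.6 CPM in Npc1+/+ cerebella, without overlap. Its log2 fold change of -0.57 ± 0.23 had an adjusted p of 0.14 (edgeR). Pde8a and Pde4d overlapped between the groups, with log2 fold changes of 0.40 ± 0.21 and -0.05 ± 0.20 (adjusted p = 0.266 and 0.912). Pde10a, which hydrolyses both nucleotides, had 105 to 121 CPM in the mutants, against 124 to 154 CPM in Npc1+/+ mice, and a log2 fold change of -0.25 ± 0.16 (adjusted p = 0.366, edgeR). In all, 6 of 9 members had groups that did not overlap, 1 higher and 5 lower in the mutants, against 20.7% of all genes tested, 10.6% higher and 10.1% lower.

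The Pde1b call was lost in edgeR without the third vehicle-treated Npc1-/- cerebellum, from the only female mouse of its group (0.86 ± 0.29, adjusted p = 0.118). Without that library the estimate was not smaller than the 0.78 ± 0.20 of the main fit, but its standard error was larger. The call was also lost with only these 2 groups in the fit (0.73 ± 0.26, adjusted p = 0.186). Pde1c passed without a term for sex (-0.93 ± 0.18, adjusted p = 0.00164), under DESeq2 (0.0225), with RLE factors (0.0477), with no filter on low counts (0.0264), and without the second vehicle-treated (0.0329) or the first dipyridamole-treated Npc1-/- cerebellum (0.0176). Pde1a passed without a term for sex (0.0218) or without the first Npc1+/+ cerebellum (0.0443). Among female mice alone, Pde5a differed by -1.56 ± 0.25 and Pde1b by 0.72 ± 0.21 (log2). The vehicle-treated Npc1-/- arm is then 1 library, the third, whose removal lost the Pde1b call, so these values are given without a p.

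Cell type markers moved with genotype in the same cerebella. Of 12 Purkinje cell markers, 10 were lower and 0 higher in vehicle-treated Npc1-/- than in Npc1+/+ cerebella, and none was at 0. Their summed level was 4264 to 4551 CPM in dipyridamole-treated Npc1-/-, 3438 to 4811 CPM in vehicle-treated Npc1-/- and 9696 to 10744 CPM in Npc1+/+ cerebella. The list also summed to 2407 to 3782 CPM in hippocampi, which have no Purkinje cells. Of 12 microglial markers, 10 were tested and 9 were higher, with a summed level of 672 to 785 CPM in dipyridamole-treated Npc1-/-, 723 to 813 CPM in vehicle-treated Npc1-/- and 163 to 172 CPM in Npc1+/+ cerebella; Itgam and C1qa were at 0 in every library of the vehicle-treated Npc1-/- and the Npc1+/+ cerebella. Of 8 markers of Bergmann glia and astrocytes, none at 0, 3 were higher and 3 lower, and the sums were 2984 to 3972, 2738 to 3611 and 2314 to 2748 CPM in dipyridamole-treated Npc1-/-, vehicle-treated Npc1-/- and Npc1+/+ cerebella. Of 10 markers of hippocampal principal neurons, 8 were tested and 2 were lower, with sums of 682 to 1253, 656 to 889.8 and 1511 to 1795 CPM in the same groups and Spink8 at 0 in every vehicle-treated Npc1-/- and Npc1+/+ cerebellum. Calb1 belongs both to this list and to the Purkinje list, and the median log2 fold change of the tested genes was -0.24. Of 6 tested granule cell markers 1 was lower. Markers of vascular smooth muscle and pericytes, cells in which PDE5 is also known, had 0 of 8 tested genes pass, with summed levels of 147 to 281 CPM in vehicle-treated Npc1-/- and 144 to 176 CPM in Npc1+/+ cerebella. In whole tissue, fewer cells of a type and less RNA per cell cannot be told apart, and the part of these shifts in the phosphodiesterase differences was not tested.

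In the hippocampus the Pde5a levels of the genotypes overlapped, and Pde8a, a cAMP-specific enzyme of high affinity, was the member with the largest difference. None of the 9 tested members passed an adjusted p of 0.05 between vehicle-treated Npc1-/- and Npc1+/+ hippocampi in edgeR's quasi-likelihood test, where 1.62% of all 12740 genes did, 1.02% higher and 0.597% lower. At an unadjusted p under 0.05 there were 2 members, Pde1b and Pde8a, and 1569 genes. DESeq2 called 1 member, Pde8a, and 419 of all 12740 genes, where edgeR called 206. The members' median log2 fold change was -0.12, against -0.01 over all genes.

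Pde8a had 10.6, 3.30, 4.19 and 8.70 CPM in vehicle-treated Npc1-/- hippocampi, against 15.9, 14.3, 20.1 and 19.9 CPM in Npc1+/+ hippocampi. All mutant libraries were lower, at counts of 12 to 67 against 122 to 176, but they were spread more widely among themselves. The log2 fold change was -1.43 ± 0.47 (95% interval -2.45 to -0.42), with an adjusted p of 0.201 by edgeR, 0.0436 by DESeq2 and 0.0312 by edgeR without the term for sex. Among female mice alone it was -2.08 ± 0.46, with 1 vehicle-treated mutant library and hence no p given. Pde1b had 215, 248, 309 and 277 CPM in the mutants, against 203, 215, 185 and 202 CPM in Npc1+/+ mice, with 1 value almost level with the highest Npc1+/+ library. Its log2 fold change was 0.53 ± 0.16, with an adjusted p of 0.152 (edgeR).

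Pde1c, at 3.65, 6.05, 6.29 and 2.85 CPM in vehicle-treated Npc1-/- and 7.14, 7.04, 8.19 and 8.005 CPM in Npc1+/+ hippocampi, had all its mutant libraries below the Npc1+/+ ones. With counts of 20 to 51 against 53 to 79, its log2 fold change of -0.37 ± 0.35 had an adjusted p of 0.732 (edgeR). Pde5a had 6.02, 12.4, 9.00 and 9.56 CPM in the mutants, against 12.1, 9.26, 10.3 and 7.55 CPM in Npc1+/+ mice. These libraries overlapped throughout, with a log2 fold change of -0.12 ± 0.30 and a 95% interval of -0.77 to 0.53. Pde9a had 20.3, 23.4, 23.5 and 19.3 CPM in the mutants, against 19.3, 21.3, 13.7 and 12.5 CPM in Npc1+/+ mice, and Pde1a, the member that marks this tissue most, had 160.1, 173, 141 and 162 CPM, against 135, 167, 157 and 179 CPM. Their log2 fold changes were 0.41 ± 0.27 and -0.01 ± 0.17 (adjusted p = 0.58 and 0.994, edgeR). Pde1a, Pde4d, Pde7b, Pde9a and Pde10a lay between -0.28 and 0.41, and their libraries overlapped. Members whose groups did not overlap numbered 2 of 9, both lower in the mutants, against 11.7% of all genes, 6.29% higher and 5.38% lower.

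Oligodendrocyte markers moved with genotype in these hippocampi: of 10 genes, 9 were lower and 0 higher in vehicle-treated Npc1-/- mice, and none was at 0. Their summed level was 670.0 to 1793 CPM in dipyridamole-treated Npc1-/-, 1222 to 1896 CPM in vehicle-treated Npc1-/- and 5159 to 6336 CPM in Npc1+/+ hippocampi. In the cerebellum, where Pde8a had overlapping groups, the same sum was 9397 to 10731, 7105 to 12344 and 6897 to 8067 CPM in those groups. There, 0 of the 10 genes were higher and 0 lower in vehicle-treated Npc1-/- mice, and their median log2 fold change was -0.29. The cerebellar sum thus did not reflect the list as a whole. Microglial markers moved too: of 12 genes, 10 were tested, and 4 were higher and 0 lower in vehicle-treated Npc1-/- hippocampi. Their sums were 669 to 839 CPM in dipyridamole-treated Npc1-/-, 668 to 871 CPM in vehicle-treated Npc1-/- and 377 to 477 CPM in Npc1+/+ hippocampi, with Itgam at 0 in every library. One gene each was higher in the Purkinje list (of 11 tested) and in the list of Bergmann glia and astrocytes (of 8). The part of these shifts in the hippocampal differences of Pde8a and the other members was not tested.

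**Figure D3:**
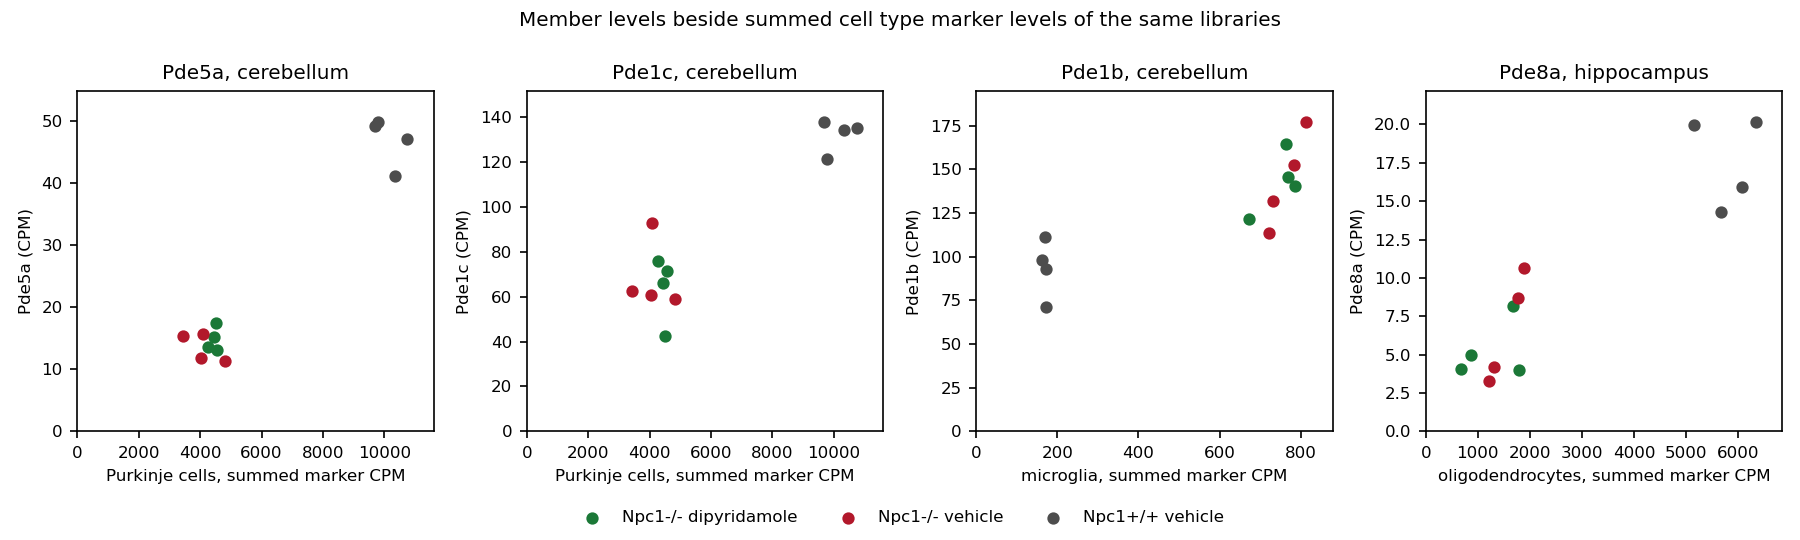
CPM of Pde5a, Pde1c and Pde1b in the 12 cerebella and of Pde8a in the 12 hippocampi (vertical axes) against the summed CPM of Purkinje cell, microglial or oligodendrocyte markers in the same libraries (horizontal axes); each point is a library. In every panel the Npc1+/+ libraries form a cluster of their own and the 2 Npc1-/- groups lie together, so no correlation is given across the clusters.

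The genotype difference itself differed between the tissues for 2 members. The log2 fold change of vehicle-treated Npc1-/- over Npc1+/+ mice in the cerebellum, minus that in the hippocampus, was -1.60 ± 0.36 for Pde5a (adjusted p = 0.0351) in edgeR's quasi-likelihood test of the interaction, with the mouse as a block. The same quantity was 1.89 ± 0.43 for Pde8a (adjusted p = 0.0375). Of all 13436 genes, 1.15% passed this test, 0.543% with a positive and 0.61% with a negative value of this difference. The other 7 tested members did not pass, and their values lay between -0.66 for Pde9a and 0.73 for Pde1a.

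Both calls depended on single mice, named here by replicate number within their group. The Pde5a call was lost without Npc1+/+ replicate 2 or 3, vehicle-treated Npc1-/- replicate 2, 3 or 4, or dipyridamole-treated Npc1-/- replicate 1 or 3, with values between -1.81 and -1.44 and adjusted p up to 0.275. The Pde8a call was lost without Npc1+/+ replicate 2 or 3, vehicle-treated Npc1-/- replicate 3 or 4, or dipyridamole-treated Npc1-/- replicate 1, 2 or 4, with values of at least 1.48 and adjusted p up to 0.597, and it was also lost without the block for the mouse (0.0926). Without Npc1+/+ replicate 1, Pde1a passed at 1.03 ± 0.24 (adjusted p = 0.0371).

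Dipyridamole, which has phosphodiesterases as a target class, went with no detected difference in the transcripts of the tested members. In edgeR's quasi-likelihood test, 0 of 9 tested members differed between dipyridamole-treated and vehicle-treated Npc1-/- mice in either tissue, and 0.0% of all genes passed in the cerebellum and 0.0% in the hippocampus. At an unadjusted p under 0.05 there were 0 members in both tissues, 300 genes in the cerebellum and 93 in the hippocampus. DESeq2 also called 0 genes in each tissue.

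In the cerebellum Pde5a had 17.5, 13.1, 13.6 and 15.1 CPM in dipyridamole-treated Npc1-/- mice, against 11.8, 15.4, 15.7 and 11.4 CPM in vehicle-treated ones. The groups overlapped, and the log2 fold change of 0.13 ± 0.17 had a 95% interval of -0.24 to 0.50. Pde1b had 140.4, 121, 145 and 164 CPM with the drug, against 132, 114, 153 and 177 CPM with vehicle, and its log2 fold change was -0.07 ± 0.16 (95% interval -0.41 to 0.27). Pde1c had 42.3, 71.7, 76.1 and 66.0 CPM with the drug, against 60.6, 62.7, 92.7 and 58.8 CPM with vehicle. The lowest library of Pde1c was the first drug-treated one and the highest the third vehicle-treated one, and the log2 fold change was -0.21 ± 0.16 (95% interval -0.54 to 0.12). Across the 9 members the cerebellar log2 fold changes lay between -0.25 for Pde8a and 0.17 for Pde9a, and all 95% intervals between -0.62 and 0.65.

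In the hippocampus Pde8a had 4.03, 4.99, 8.15 and 4.07 CPM in dipyridamole-treated Npc1-/- mice, against 10.6, 3.30, 4.19 and 8.70 CPM in vehicle-treated ones, and a log2 fold change of -0.34 ± 0.38 (95% interval -1.15 to 0.47). The other 8 members lay between -0.25 for Pde9a and 0.11 for Pde5a. Every member's groups overlapped in both tissues, whereas 1.22% of all genes in the cerebellum (0.65% higher and 0.573% lower) and 1.2% in the hippocampus (0.691% higher and 0.51% lower) had groups that did not. Pde4d and Pde10a had their most distant hippocampal values, 156 and 70.6 CPM, in the fourth drug-treated library, the one high in cortical markers. Changes within these intervals remain possible at this depth and spread. The intervals are not limits of detection, since a change outside them could also miss the threshold after adjustment over all genes. No member passed edgeR's interaction test of the drug difference between the tissues (0 of 9, with 0.0% of all genes, 222 genes and 0 members at an unadjusted p under 0.05, and 0 members with DESeq2).

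Set against Npc1+/+ mice, the dipyridamole-treated mutants differed in 5 members in the cerebellum and in 1, Pde8a, in the hippocampus. These comparisons share the Npc1+/+ libraries and are given side by side. In the cerebellum, 2 of 9 tested members were higher and 3 lower in dipyridamole-treated Npc1-/- mice by edgeR's test, against 14.4% of all genes (8.13% higher and 6.29% lower). The same 5 members had groups that did not overlap, against 25.8% of all genes (13.0% higher and 12.8% lower). Pde5a differed by -1.60 ± 0.19 (adjusted p = 1.3e-05) with the drug and by -1.73 ± 0.21 without it. Pde1b differed by 0.71 ± 0.17 (0.0108) with the drug and by 0.78 ± 0.20 without. Pde1c differed by -0.82 ± 0.17 (0.00394) with the drug and by -0.61 ± 0.19 without.

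The remaining called members were the calmodulin-dependent Pde1a and the cAMP-specific Pde7b. Pde1a had 10.6, 9.82, 9.55 and 13.3 CPM in dipyridamole-treated Npc1-/- cerebella, against 7.99, 4.50, 5.00 and 5.09 CPM in Npc1+/+ cerebella, and no library overlapped. Its log2 fold change was 0.90 ± 0.25 (adjusted p = 0.0224, edgeR), at counts of 63 to 124 against 39 to 92. Pde7b had 9.23, 6.55, 8.68 and 6.98 CPM in these mutants, against 12.7, 12.8, 13.2 and 12.6 CPM in Npc1+/+ mice, all mutant libraries being lower. The log2 fold change was -0.74 ± 0.20 (adjusted p = 0.0202, edgeR). In these mutants, 11 of 12 Purkinje markers were lower and 8 of 10 tested microglial markers higher. Of 8 markers of Bergmann glia and astrocytes 3 were higher and 3 lower, and of 10 oligodendrocyte markers 1 was higher and 3 lower. Passing here and not with vehicle does not show a drug effect, which the direct comparison tested. Without the fourth dipyridamole-treated cerebellum only Pde5a still passed (Pde1c adjusted p = 0.0515, Pde1b 0.0876, Pde7b 0.132, Pde1a 0.221). Pde1a was also lost without Npc1+/+ cerebellum replicate 2, 3 or 4 (0.067, 0.0617 and 0.054), and Pde7b without the third vehicle-treated Npc1-/- one (0.0544).

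In the hippocampus 1 of 9 members passed against Npc1+/+ mice, where 2.68% of all genes did (1.59% higher and 1.09% lower). Pde8a had 4.03, 4.99, 8.15 and 4.07 CPM in dipyridamole-treated Npc1-/- hippocampi, against 15.9, 14.3, 20.1 and 19.9 CPM in Npc1+/+ hippocampi, without overlap. Of 10 oligodendrocyte markers, 10 were lower in the same comparison, and of 10 tested microglial markers 5 were higher. Pde8a was 3.41-fold lower, a log2 fold change of -1.77 ± 0.39 (adjusted p = 0.0266, edgeR). The call was lost without the fourth dipyridamole-treated hippocampus, the one high in cortical markers (-1.62 ± 0.46, adjusted p = 0.154), and without the third vehicle-treated Npc1-/- (0.0782) or without Npc1+/+ hippocampus replicate 3 or 4 (0.0836 and 0.0503). The Pde1b groups did not overlap, and its log2 fold change of 0.53 ± 0.14 did not pass with edgeR (adjusted p = 0.0738), and did with DESeq2 (0.0145). In all, 3 of 9 members had groups that did not overlap, 1 higher and 2 lower, against 12.4% of all genes, 6.82% higher and 5.54% lower.

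**Figure D4:**
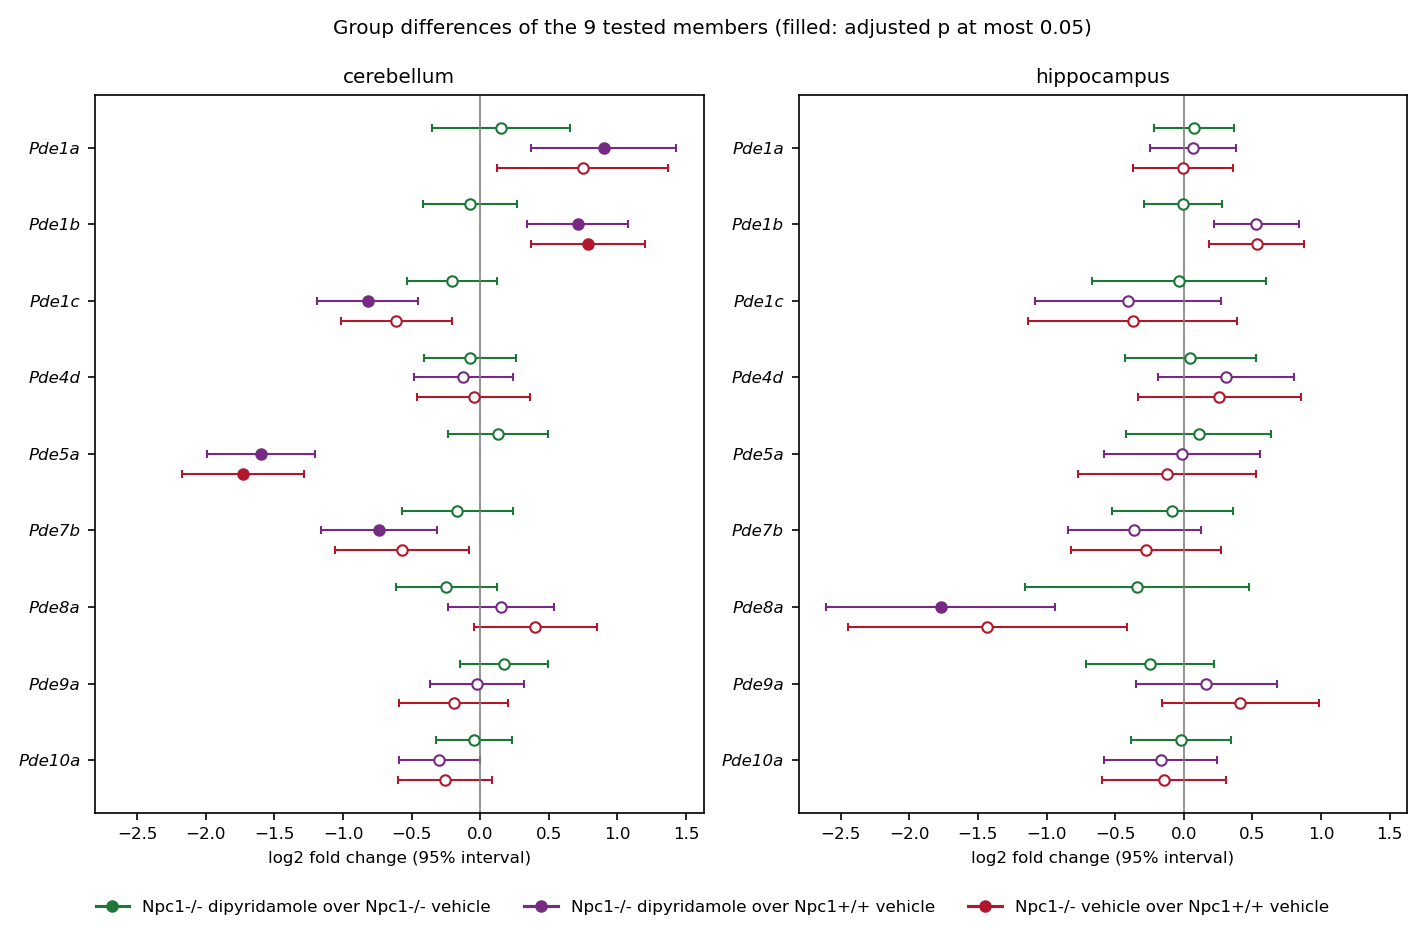
Log2 fold changes of the 9 tested members in each tissue for dipyridamole-treated over vehicle-treated Npc1-/- mice, dipyridamole-treated Npc1-/- over Npc1+/+ mice and vehicle-treated Npc1-/- over Npc1+/+ mice, with 95% intervals; filled points passed an adjusted p of 0.05. All intervals of the drug comparison cross 0, while Pde5a lies at -1.73 and -1.60 against Npc1+/+ mice in the cerebellum.

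Of the 14 other phosphodiesterase genes in the files, 8 were tested in the cerebellum and 9 in the hippocampus. None passed between vehicle-treated Npc1-/- and Npc1+/+ mice in either tissue, where 9.95% of all genes did in the cerebellum and 1.62% in the hippocampus. Between the treatments none passed either, with 0.0% of all genes in each tissue. Pde4a, a cAMP-specific relative of Pde4d, had 114, 104, 103 and 129 CPM in dipyridamole-treated and 95.4, 90.0, 127 and 122 CPM in vehicle-treated Npc1-/- cerebella, against 77.3, 95.4, 69.7 and 93.3 CPM in Npc1+/+ cerebella. It passed for the drug-treated mutants at 0.53 ± 0.16 (adjusted p = 0.0388, edgeR) and not for the vehicle-treated ones at 0.53 ± 0.18 (adjusted p = 0.0764). Pde4c had 1.69, 1.51, 2.01 and 2.04 CPM in dipyridamole-treated and 1.59, 2.47, 1.97 and 0.998 CPM in vehicle-treated Npc1-/- hippocampi, against 0.723, 0.704, 0.269 and 0.453 CPM in Npc1+/+ hippocampi. At counts of 7 to 16 against 2 to 8, its log2 fold change was 1.82 ± 0.51 for vehicle-treated mutants (adjusted p = 0.115) and 1.83 ± 0.46 for drug-treated ones (adjusted p = 0.0511). Between the tissues of Npc1+/+ mice, 5 of 9 passed, against 43.1% of all genes: Pde3a (2.02 ± 0.22) and Pde3b (1.26 ± 0.15), the cGMP-inhibited enzymes, were higher in the cerebellum, and Pde11a (-3.03 ± 0.31), Pde8b (-1.49 ± 0.17) and Pde4a (-0.94 ± 0.12) were lower.

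Genes of the wider pathway are given by list for vehicle-treated Npc1-/- over Npc1+/+ cerebella, where 9.95% of all genes passed. Of 9 tested adenylyl cyclases, 1 was higher and 1 lower, and the list's median log2 fold change was -0.15. Adcy1, the neuronal calmodulin-stimulated cyclase, had 625, 382, 592 and 461 CPM in the mutants, against 1097, 837, 909 and 855 CPM in Npc1+/+ mice, a log2 fold change of -0.78 ± 0.20 (adjusted p = 0.0164, edgeR). Adcy7, a cyclase of immune cells, was higher by 1.25 ± 0.37 (adjusted p = 0.0408). Of 9 tested guanylyl cyclases and nitric oxide synthases, 2 were higher and 1 lower, with a median of 0.26. Nos1, the neuronal nitric oxide synthase, had 251, 296, 232 and 238 CPM in the mutants, against 146, 133, 118 and 138 CPM in Npc1+/+ mice, a difference of 0.78 ± 0.16 (adjusted p = 0.0035). Gucy2f, a membrane guanylyl cyclase, differed by 2.37 ± 0.63 (0.0227) at counts of 1 to 26 against 1 to 11. Npr1, the natriuretic peptide receptor that makes cGMP, was lower, with a log2 fold change of -1.03 ± 0.31 (0.0452).

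Of 14 tested cyclic nucleotide effectors, 1 was higher and 1 lower, against 9.95% of all genes passing, with a median of -0.06. Prkg1, the cGMP-dependent protein kinase, had 12.2, 12.9, 11.4 and 8.77 CPM in vehicle-treated Npc1-/- cerebella, against 29.6, 31.8, 29.4 and 34.1 CPM in Npc1+/+ cerebella. It was lower without overlap, by a log2 fold change of -1.30 ± 0.24 (adjusted p = 0.00183, edgeR). Rapgef3, the cAMP-activated exchange factor Epac1, had 59.2, 37.0, 50.8 and 49.0 CPM in the mutants, against 22.4, 19.1, 14.0 and 14.5 CPM in Npc1+/+ mice, a log2 fold change of 1.61 ± 0.23 (adjusted p = 0.000139). Of 19 tested anchors and inhibitors, 1 was higher and 2 lower, against the same 9.95%, with a median of -0.23. Ppp1r17, the G-substrate that the cGMP-dependent kinase phosphorylates in Purkinje cells, had 9.30, 5.65, 16.5 and 7.47 CPM in the mutants, against 150.03, 124, 163 and 113 CPM in Npc1+/+ mice, a log2 fold change of -3.41 ± 0.28 (adjusted p = 2.25e-07). Akap12, a kinase anchor, and Arpp21, a cAMP-regulated phosphoprotein, differed by 0.57 ± 0.18 and -0.58 ± 0.18 (adjusted p = 0.0464 and 0.0455).

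Of 10 tested calmodulin genes and calmodulin binders, 0 were higher and 4 lower in vehicle-treated Npc1-/- cerebella, against 9.95% of all genes passing in either direction, with a median of -0.44. The calmodulin-dependent kinases Camk4, Camk2b and Camk2a differed by -0.56 ± 0.17, -0.56 ± 0.17 and -0.68 ± 0.21 (adjusted p = 0.0401, 0.039 and 0.0476, edgeR). Of 8 CREB factors and coactivators 0 passed in edgeR's test, 1 had an unadjusted p under 0.05, and the nearest was Creb1, the cAMP-responsive transcription factor, at -0.65 ± 0.21 (adjusted p = 0.0594). The Purkinje and microglial marker sums given above moved in the same libraries.

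In dipyridamole-treated Npc1-/- against Npc1+/+ cerebella, 14.4% of all genes passed. Adenylyl cyclases had 1 higher and 1 lower, the same Adcy7 (1.05 ± 0.31, adjusted p = 0.0294) and Adcy1 (-0.76 ± 0.18, 0.0081), and guanylyl cyclases and synthases 2 higher and 1 lower, Nos1 (0.80 ± 0.14), Gucy2f (1.86 ± 0.60) and Npr1 (-1.03 ± 0.28). Effectors had 1 higher, Rapgef3 (1.57 ± 0.20), and 2 lower, Prkg1 (-1.24 ± 0.21) among them. Anchors had 1 higher, Akap12 (0.48 ± 0.15), and 2 lower, Ppp1r17 (-3.46 ± 0.26) and Akap9 (-0.77 ± 0.21). Calmodulin genes and binders had 1 higher, Nrgn (1.28 ± 0.24), a neuronal calmodulin binder, and 4 lower, among them Calm2 (-0.70 ± 0.18) and Camk4 (-0.49 ± 0.15). All these passed an adjusted p of 0.05 in edgeR's test.

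No gene of these lists passed between the treatments in either tissue, or in the hippocampus against Npc1+/+ mice with or without the drug. Among all genes, 0.0% passed between the treatments in each tissue, and 2.68% and 1.62% in those hippocampi with and without the drug. In the hippocampus of vehicle-treated Npc1-/- mice the smallest p in 5 of the lists belonged to Adcy6 (-0.45 ± 0.23, adjusted p = 0.459), Gucy2f (1.41 ± 0.38, 0.105), Rapgef3 (0.87 ± 0.26, 0.154), Akap12 (0.71 ± 0.29, 0.347) and Creb1 (-0.63 ± 0.27, 0.351). In dipyridamole-treated mutants against Npc1+/+ mice, Gucy1a1, a subunit of the nitric oxide receptor cyclase, came nearest at 1.28 ± 0.33 (adjusted p = 0.0602). Its value in the fourth drug-treated hippocampus was 209 CPM, against 52.9 to 66.3 CPM in the other 3.

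Over the 12 cerebellar libraries, 12879 genes were ranked by how closely their log2(CPM + 1) followed that of Pde5a, Pde1b and Pde1c. The libraries fall into 3 groups, so r includes the group differences and is given as a description. Pde5a was followed most closely by Hk2 (r = 0.993), Ryr1 (0.991), Fam131a (0.987) and Gm5083 (0.986), all lower in vehicle-treated Npc1-/- cerebella. Ryr1, a calcium release channel, averaged 1.06 CPM in these mutants, against 9.5 CPM in Npc1+/+ mice, and Hk2, a hexokinase, 8.2 CPM against 27.7 CPM. Pde1b was followed by Hebp1 (0.977), Astn1 (0.966), Cst3 (0.961) and Tnfsf13b (0.954), and Pde1c by Scn8a (0.977), Cyth3 (0.97), Atp2b2 (0.97) and Nsg1 (0.961). Cst3, which encodes the protease inhibitor cystatin C, averaged 4070 CPM in the mutants, against 2300 CPM in Npc1+/+ mice. Atp2b2, a plasma membrane calcium pump, averaged 699 CPM in the mutants, against 1100 CPM in Npc1+/+ mice.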

How the data were processed

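Per the labels, the 24 libraries (12 mice, 2 tissues, 4 mice per group) were made with an Ion AmpliSeq mouse transcriptome kit and run on the Ion S5 system. The files are raw read counts per gene, as deposited by the authors. The submitters' processing notes name FastQC 0.11.9, Trimmomatic 0.39, STAR 2.7.9a and featureCounts 2.0.3 as tools, and GRCm39 as the genome. The file headers record counting against GENCODE M34 without any strand, overlap or multimapping option. Without strand, reads of a gene and its antisense partner cannot be told apart where their exons overlap. By default, featureCounts leaves a read on exon bases shared between genes uncounted.

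The phosphodiesterases and all gene lists were chosen with earlier results of these data known. Symbols came from the reference gene table for 51884 of 57126 gene IDs; IDs without one held 0.21% of counts. Genes passing edgeR's expression filter were fitted in edgeR 4.0.16 (limma 3.58.1, R 4.3.3) with the quasi-likelihood test, TMM factors and robust estimation: within a tissue over its 12 libraries with group and sex, and across tissues over 24 libraries with mouse as a block, tissue by group and tissue by sex. P-values were Benjamini-Hochberg adjusted over all genes tested, at 0.05. A standard error is the log2 fold change divided by the root of F, and intervals are 95%. The steps were also run on simulated counts with planted changes. These held no effect of sex or mouse and no tissue difference beyond the planted changes. They therefore do not test how the fits handle those terms.

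All members were named in every comparison; from each other list, up to 4 called genes with the smallest p, or the 1 gene with the smallest p; other phosphodiesterases that passed; and the 4 genes most correlated with each of the 3 members with the smallest p in the cerebellum. Some genes that this rule picks are not reported here. Alternatives were no term for sex, a replicate block, DESeq2 1.42.0, RLE factors, no filter, at least 10 counts in every library, only the compared groups, female mice only, and leaving out each library or mouse. Replicate libraries differed by more than counting noise (chi-square per degree of freedom 6.99 to 46.2). Each mouse number in the labels ties its 2 tissues: their deviations from the group means correlated between -0.432 and 0.484, above 0.1 in 8 of 12 mice. Those 8 were all Npc1-/- mice. The Npc1+/+ mice had -0.398, 0.0761, 0.0178 and -0.432, so the correlations did not show the tie in that group. The labels mark 2 libraries, both tissues of one dipyridamole-treated mouse, with the same Ion code. Reference promoter sequences were RefSeq's for GRCm38.p6.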

Additional observations from a re-analysis of the deposited data

Results flagged for a closer look

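Among 120 groups of 4 libraries checked, 9 had 1 library whose gap to its nearest neighbour took up more of the group's range than Dixon's 95% limit allows. Chance flags about 1 in 20 groups. Pde4d was at 156 CPM and the summed cortical markers were at 535 CPM in the fourth dipyridamole-treated hippocampus, against next values of 87.0 and 163 CPM. Summed choroid plexus markers were at 5165 CPM in the first dipyridamole-treated hippocampus, against 394 CPM. Pde10a was lowest in the second vehicle-treated Npc1-/- hippocampus at 86.0 CPM, against 113 CPM.

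In the cerebellum, Pde9a was lowest in the second dipyridamole-treated Npc1-/- library at 36.6 CPM, against 44.7 CPM. Pde1c was highest in the third vehicle-treated Npc1-/- library at 92.7 CPM, against 62.7 CPM, and summed smooth muscle and pericyte markers in the second one at 281 CPM, against 169 CPM. In the first Npc1+/+ library Pde1a was highest at 7.99 CPM, against 5.09 CPM, and Pde9a at 53.0 CPM, against 44.1 CPM.

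The difference between vehicle-treated Npc1-/- and Npc1+/+ mice was itself different in the 2 tissues for Pde5a (log2, cerebellum minus hippocampus, -1.60) and Pde8a (1.89), by the interaction test of edgeR's quasi-likelihood fit (adjusted p = 0.0351 and 0.0375).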

How the results depend on the processing

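Of 1539 recomputed log2 fold changes of members, 1481 kept their side of the threshold and, beyond 1 standard error, their direction. Another 33 lost a call, 13 gained one, and 12 called in neither fit changed sign by more than 1 standard error. In the cerebellum, members called between vehicle-treated Npc1-/- and Npc1+/+ mice numbered 2, against 4 without the term for sex, 1 with only the 2 groups fitted, and 1 to 3 when each library was left out. For dipyridamole-treated Npc1-/- over Npc1+/+ cerebella they numbered 5, and 1 to 5 with libraries left out. In the hippocampus, vehicle-treated Npc1-/- over Npc1+/+ gave 0, against 1 without the term for sex and 1 with DESeq2, and dipyridamole-treated Npc1-/- over Npc1+/+ gave 1, against 2 with DESeq2 and 0 to 1 with libraries left out. The genotype difference between tissues gave 2, against 1 with no replicate block for the mouse and 0 to 3 with mice left out. The drug comparisons gave 0 members under every alternative run.

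All-gene counts changed by more than 1.5 times as follows. Cerebellar genotype calls numbered 1286, against 2249 without sex, 613 with the replicate block, 421 with only 2 groups, and 474 to 1866 with libraries left out. For dipyridamole-treated Npc1-/- over Npc1+/+ cerebella they numbered 1864, against 1171 with the block and 858 to 2307. Hippocampal genotype calls numbered 206, against 490 without sex, 55 with the block, 419 with DESeq2, 47 with only 2 groups, 51 in females (1 mutant library), and 31 to 238. For dipyridamole-treated Npc1-/- over Npc1+/+ hippocampi they numbered 342, against 195 with the block, 689 with DESeq2, 179 in females (2 mutant libraries), and 130 to 428. The tissue difference of genotype had 155, against 386 without tissue by sex, and 27 to 227 with mice left out, and the cerebellar drug comparison had 0, against 13 without a filter. The lowest counts came without the third vehicle-treated Npc1-/- library in both genotype comparisons within a tissue (and mouse in that between tissues), and without the fourth dipyridamole-treated library in both comparisons of treated mutants with Npc1+/+ mice. The causes were not tested.

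Replicate numbers did not pair libraries within a tissue: same-numbered libraries correlated above 0.1 in 8 of 24 pairs (-0.406 to 0.563). The replicate block gave 2, 4, 0 and 1 members called for vehicle-treated and dipyridamole-treated Npc1-/- over Npc1+/+ cerebella and then hippocampi; Pde7b was the call it lost (0.0659). Low counts, down to 12 for Pde8a and 20 for Pde1a and Pde1c in single libraries, limit precision. With 4 mice per group, 1 library can decide a call, and genotype, age and the sex of Npc1+/+ mice are tied.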

Other observations

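The lists of the wider nucleotide pathway were also counted between the tissues of Npc1+/+ mice. In edgeR's quasi-likelihood test of cerebellum over hippocampus, where 43.1% of all genes passed, 3 of 9 tested adenylyl cyclases were higher and 5 lower in the cerebellum, with a median log2 fold change of -0.59, against 0.02 over all genes. Of 10 tested calmodulin genes and binders, 3 were higher and 6 lower (median -0.84). Guanylyl cyclases and nitric oxide synthases had 3 of 10 higher and 3 lower (median 0.23), effectors 3 of 16 higher and 3 lower (-0.09), anchors and inhibitors 7 of 19 higher and 4 lower (0.11), and CREB factors and coactivators 4 of 8 higher and 1 lower (0.46).

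No gene of these 6 lists passed the test of whether the genotype difference differed between the tissues, and none passed for the drug difference. Among all genes, 1.15% and 0.0% passed these tests.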
